A study of Mus musculus with 78 samples.

Results

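The 10 transcription factors of the pluripotency network studied here (Pou5f1, Sox2, Nanog, Klf4, Klf5, Klf17, Esrrb, Tfcp2l1, Sall4 and Prdm14) were followed through single blastomeres of 4-cell and 8-cell mouse embryos. Each was located by its Entrez identifier, and 9 of the 10 had a row, the same 9 among 15218 genes at the 4-cell stage and among 15342 genes at the 8-cell stage. Sox2 had no row among the genes analysed here, so no value is given for it. The measurements were FPKM, fragments normalised to gene length and to the depth of the library, from Smart-seq2 libraries, which amplify the RNA of 1 cell, of 24 blastomeres at the 4-cell stage and 26 at the 8-cell stage. All blastomeres came from a cross of mice with a CAG-Brainbow2.1 allele at Gt(ROSA)26Sor with mice of the Tg(CAG-cre/Esr1*)5Amc/J strain, so every embryo carried 1 copy of the Brainbow cassette and 1 copy of a tamoxifen-inducible Cre, both driven by the ubiquitous CAG promoter. The embryos were collected as 2-cell embryos 46 hours after the second hormone injection, exposed to 4-hydroxytamoxifen for 2 hours and cultured in KSOM medium, with no untreated group. The labels list 36 blastomeres of 9 embryos at the 4-cell stage and 31 of 4 embryos at the 8-cell stage. Of these, 24 from 6 embryos and 26 from 4 embryos have a lineage in the labels. No column name could be tied to a single embryo or lineage, and none was assigned from column order or from expression. Each stage was therefore treated as 1 sample, the blastomeres were described and not tested, and stage cannot be told apart from any other difference between the collections.

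Most of these factors sustain the undifferentiated state of embryonic stem cells, and several of them later mark or help to form the epiblast of the blastocyst. Pou5f1 (Oct4), Sox2, Nanog and Sall4 form the core of the network and bind many enhancers together. Klf4, Klf5, Esrrb, Tfcp2l1 and Prdm14 feed into it, while Klf17 is in the mouse a factor of oocytes and cleavage embryos. Several of the factors are first transcribed, or are supplied by the oocyte, before any lineage has been set apart.

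The factors split between the stages. Klf17 and Prdm14 were lower at the 8-cell stage, Pou5f1, Tfcp2l1 and Esrrb were higher, and Nanog, Klf4, Klf5 and Sall4 lay within 2-fold (difference of mean log2(FPKM+1), 8-cell minus 4-cell). Thus 3 of 9 factors were past 2-fold higher, beside 4.56% of the 13604 genes listed at both stages, and 2 of 9 were past 2-fold lower, beside 6.76% of those genes. Among the 7248 genes above FPKM 1 in at least 50% of blastomeres of either stage, which include all 9 factors, the shares were 8.22% and 12.1%. The median difference was 0.68 over the 9 factors and -0.04 over the 13604 genes. Genes used by every cell also moved on this measure. Of 7 such genes, Hprt was past 2-fold higher (1.29), Tbp was past 2-fold lower (-1.92), and the others lay within 2-fold. Their median difference was 0.34. The Hprt difference was larger than that of Esrrb (1.24), although the median FPKM of Hprt was 1319 in 4-cell and 1285 in 8-cell blastomeres. At the 4-cell stage 8 of 9 factors exceeded FPKM 1 in at least 50% of blastomeres, beside 45.2% of the genes listed, and at the 8-cell stage also 8 of 9, beside 41.2%. The factor below this line was Tfcp2l1 at the 4-cell stage and Prdm14 at the 8-cell stage.

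**Figure D1:**
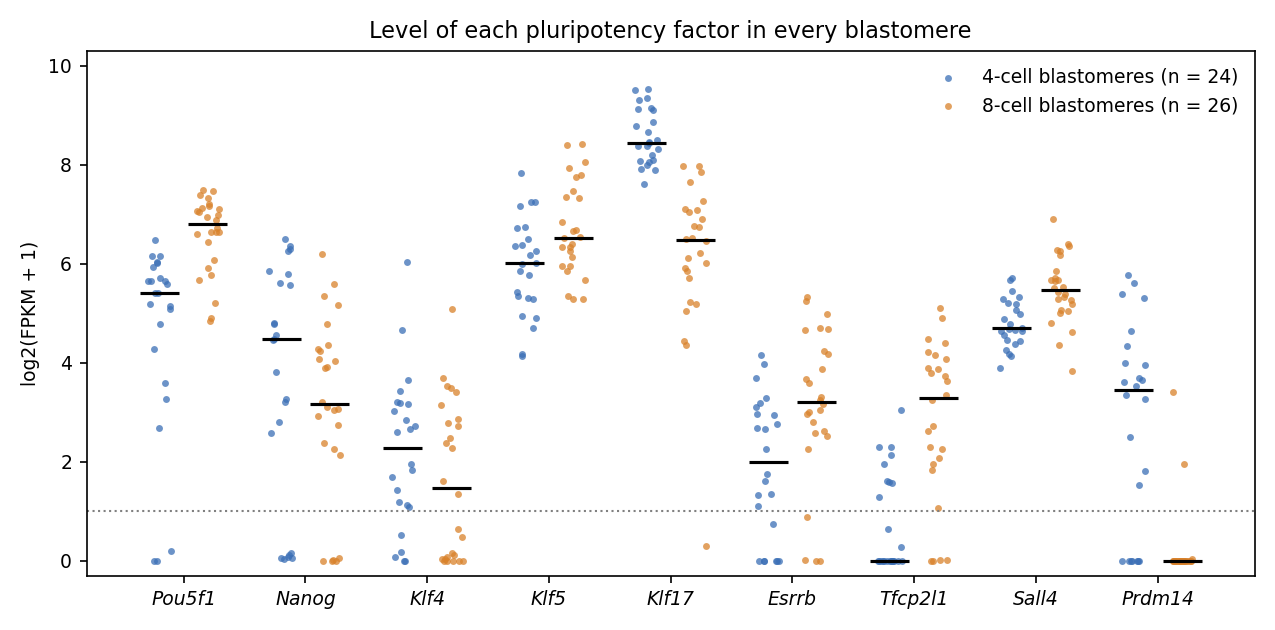
Level of each factor, log2(FPKM + 1), in each of 24 blastomeres at the 4-cell stage (blue) and 26 at the 8-cell stage (orange). Each point is 1 blastomere, bars are medians, and the dotted line is FPKM 1. For Klf17, 22 of the 26 points of the 8-cell stage lie below all points of the 4-cell stage, and Nanog and Prdm14 each have a cluster near 0 and a separate cluster above it.

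The starts of the factors past 2-fold are shown because their levels differed most between the stages. Promoter sequences of GRCm38.p6, the assembly behind the mm10 build used by the authors, were read from RefSeq for 7 of the 10 factors, all but Klf5, Sall4 and Prdm14. The 250 bases before the most upstream start in the RefSeq promoter table are given for Pou5f1 (chr17:35505782-35506031, plus strand), Tfcp2l1 (chr1:118627695-118627944, plus strand), Esrrb (chr12:86360867-86361116, plus strand) and Klf17 (chr4:117765667-117765916, minus strand), each written 5′ to 3′ along its gene. For Tfcp2l1 this start lies inside the annotated gene, so that the last 22 bases shown belong to the gene, while the other windows end where the gene begins. Capitals mark matches on either strand to the octamer ATGCAAAT of Pou factors, the Sox core ACAAAG or ACAATG, the CACCC box CCACCC and the GC box GGGCGG of Klf and Sp factors, the nuclear receptor site AAGGTCA bound by Esrrb, and the TATA box TATAAA. None of these motifs is part of another.
Pou5f1: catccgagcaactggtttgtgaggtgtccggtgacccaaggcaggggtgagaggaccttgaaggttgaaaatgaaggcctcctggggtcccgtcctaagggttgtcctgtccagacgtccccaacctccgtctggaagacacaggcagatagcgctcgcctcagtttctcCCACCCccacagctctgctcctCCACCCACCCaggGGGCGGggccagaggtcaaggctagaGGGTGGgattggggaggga
Tfcp2l1: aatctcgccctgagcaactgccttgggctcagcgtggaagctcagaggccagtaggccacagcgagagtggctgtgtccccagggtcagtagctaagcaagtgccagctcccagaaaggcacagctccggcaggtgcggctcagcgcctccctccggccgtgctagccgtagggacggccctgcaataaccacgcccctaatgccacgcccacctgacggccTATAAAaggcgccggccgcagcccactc
Esrrb: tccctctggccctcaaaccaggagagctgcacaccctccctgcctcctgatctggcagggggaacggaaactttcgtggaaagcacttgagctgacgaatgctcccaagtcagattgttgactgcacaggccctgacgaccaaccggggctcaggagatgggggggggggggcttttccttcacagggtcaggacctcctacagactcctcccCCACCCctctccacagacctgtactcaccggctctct
Klf17: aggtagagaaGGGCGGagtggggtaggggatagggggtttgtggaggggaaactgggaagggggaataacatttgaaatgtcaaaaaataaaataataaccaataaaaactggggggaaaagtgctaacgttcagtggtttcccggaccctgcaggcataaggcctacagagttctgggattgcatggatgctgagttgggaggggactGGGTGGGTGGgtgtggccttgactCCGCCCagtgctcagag

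Pou5f1 held 4 matches to the CACCC box, a pair of which overlap by 2 bases, and 1 to the GC box, and Klf17 held 2 of each, with its CACCC boxes overlapping in the same way. Esrrb held 1 CACCC box. Tfcp2l1 held only a TATA box, from 28 to 23 bases before the start in the promoter table, which is 6 to 1 bases before the annotated start of the gene. Of 32851 RefSeq promoters, windows of the same length held the CACCC box in 28.1%, the GC box in 32.7% and the TATA box in 12.4%. The octamer, found in 1.60% of promoters, the Sox core (25.2%) and the nuclear receptor site (4.08%) had no match in these 4 windows. A match is a run of letters, not a bound site, and the CACCC box and the GC box occurred both in Klf17, which was lower at the 8-cell stage, and in Pou5f1, which was higher.

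Pou5f1, a POU-domain factor and the founding member of the network, was measured in every 8-cell blastomere. Its FPKM was 0 in the lowest, 41.5 in the median and 87.7 in the highest of the 24 blastomeres at the 4-cell stage, and 27.8, 110 and 178 in the 26 blastomeres at the 8-cell stage. At the 4-cell stage 2 blastomeres were listed at 0 and 1 more stood at 0.141, while the next lowest stood at 5.46. All 26 blastomeres of the 8-cell stage exceeded FPKM 1, against 21 of 24 at the 4-cell stage, and 18 of the 26 lay above the whole 4-cell range. The difference was 2.0 on the log2 scale, and the ratio of the medians was 2.66. The gene (chr17:35506032-35510777, plus strand, mm10) supplied a share of the summed FPKM of the listed Pou family genes that had a median of 71.1% at the 4-cell stage and 87.7% at the 8-cell stage. The other Pou genes above FPKM 1 in at least 50% of blastomeres of either stage were Pou2f1, Pou2f3 and Pou6f1, with medians of 0.198, 7.52 and 1.45 at the 4-cell stage and 0.775, 9.53 and 4.24 at the 8-cell stage.

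Nanog, a homeodomain factor of the epiblast, had values that fell into a cluster near 0 and a separate, higher cluster at both stages. At the 4-cell stage the FPKM ran from 0.0269 through a median of 21.2 to 89.0. There 6 blastomeres did not exceed FPKM 1, the highest of them at 0.113, and the lowest of the other 18 stood at 5.00. At the 8-cell stage the FPKM ran from 0 through 7.93 to 71.8, with 5 blastomeres at or below 0.0419 and 21 at or above 3.41. After each was multiplied by the recovered denominator of its blastomere, the 8 low values above 0 were whole multiples (within 0.1) of the smallest product, and this step was taken as a single fragment. The median 4-cell blastomere then held 1187 Nanog fragments, or 690 with the length of the curated exons, on which 1 of the 8 low values was whole.
Nanog exceeded FPKM 1 in 75% of 4-cell blastomeres (95% interval 53.3% to 90.2%) and in 80.8% of 8-cell blastomeres (60.7% to 93.5%). These intervals, here and below, cover counting error only, since blastomeres of few embryos are not replicates of a stage, and no comparison between the stages rests on them. With the blastomeres near 0 included, Nanog was lower at the 8-cell stage in the sense that only 5 of 26 blastomeres exceeded the 4-cell median. The mean difference of -0.54 stayed within 2-fold, but the difference of the medians of log2(FPKM+1) was -1.32, past 2-fold. The gene (chr6:122707489-122714633, plus strand) has processed copies elsewhere in the genome, and only uniquely aligned reads entered the values.

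Sall4, a zinc-finger protein that works with Pou5f1 and Nanog, had the smallest coefficient of variation of the factors at the 4-cell stage. The FPKM ran from 13.8 through 24.9 to 51.4 at the 4-cell stage and from 13.2 through 43.3 to 118 at the 8-cell stage, above FPKM 1 in 24 of 24 and 26 of 26 blastomeres. The ranges overlapped, 8 of 26 values at the 8-cell stage lay above the whole 4-cell range, 23 exceeded the 4-cell median, and the difference was 0.68. The coefficient was 0.361. Among the 2322 genes with a mean FPKM within 2-fold of its own, the median was 0.765, and 0.775% had a smaller one. Among 8-cell blastomeres it was 0.484, against a median of 0.628 at its level, and 18% of genes there had a smaller one. Sall4 (chr2:168748332-168767201, minus strand) shares 290 exon bases with Gm14261 on the opposite strand, and reads of the pair cannot be told apart there. Of the other Sall genes none exceeded FPKM 1 in 50% of blastomeres at either stage.

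Klf17, a zinc-finger factor abundant in mouse oocytes and cleavage embryos, was the most abundant of the factors at the 4-cell stage. The FPKM was 194.5 in the lowest, 347.5 in the median and 737 in the highest 4-cell blastomere, and 0.238, 88.0 and 252 at the 8-cell stage. No 8-cell blastomere reached the 4-cell median, and 22 of 26 lay below the whole 4-cell range. The median was 3.95 times higher at the 4-cell stage, and the difference was -2.41 on the log2 scale, with 0.294% of the 13604 genes further down. Klf17 exceeded each other factor in all 24 blastomeres at the 4-cell stage, but at the 8-cell stage it was below Klf5 in 16 of 26 and below Pou5f1 in 15 of 26. It made up a median of 67.3% of the summed FPKM of the Klf family at the 4-cell stage (44.8% to 81.1%) and 24.1% at the 8-cell stage (0.231% to 51.3%). The gene has 3 exons (chr4:117756659-117765666, minus strand).

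The 8-cell blastomere with the lowest Klf17, at 0.238, stood far from the rest, whose lowest was 19.5. It was also the one with the fewest expressed genes, 3548 above FPKM 1, and the smallest FPKM denominator, 2.33 M fragments (M, 1e+06). It held 3 of the 9 factors above FPKM 1, namely Klf5 at 38, Pou5f1 at 36 and Sall4 at 13.2. The part of RNA quality in its low Klf17 value was not tested. Without this blastomere the Klf17 difference was -2.17, and over all 50 ways of leaving out 1 blastomere it lay between -2.48 and -2.17.

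Klf5, which supports both the inner cell mass and the trophectoderm, was above FPKM 1 in all 50 blastomeres. The FPKM ran from 16.6 through 63.2 to 228 at the 4-cell stage and from 37.8 through 91.3 to 341 at the 8-cell stage. The ranges overlapped, 19 of 26 blastomeres of the 8-cell stage exceeded the 4-cell median, and the difference was 0.77. Its share of the Klf family total had a median of 10.2% at the 4-cell stage and 35.6% at the 8-cell stage. Over all blastomeres of a stage Klf5 varied more than most genes at its level. The coefficient of variation was 0.700 at the 8-cell stage, where 92.5% of 1153 genes had a smaller one, and 0.689 at the 4-cell stage, where 75.2% of 1647 genes did. The 6 highest values of the 8-cell stage, 213 to 341, stood in the adjacent columns 12 to 17 of the table, and no other exceeded 177. Without these 6, an omission made after the data were seen and one that lowers the spread by its choice, the coefficient was 0.47, and 34.8% of 1481 genes had a smaller one. The 6 highest values of the 4-cell stage, 105 to 228, stood between columns 15 and 22, and no other exceeded 88.9. With the same kind of omission the coefficient there was 0.459, and 24.4% of 1874 genes had a smaller one. Whether the columns of these high values share an embryo was not tested at either stage.

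Klf4, one of the factors used to reprogram somatic cells, was the lowest of the 3 Klf factors. The FPKM ran from 0 through 4.00 to 64.9 at the 4-cell stage and from 0 through 1.80 to 33 at the 8-cell stage. It exceeded FPKM 1 in 19 of 24 and 14 of 26 blastomeres, 79.2% (57.9% to 92.9%) and 53.9% (33.4% to 73.4%), and FPKM 5 in 50% and 34.6%. The difference of -0.55 lay within 2-fold with a pseudocount of 1 but was -1.16 with a pseudocount of 0.1, and it was -0.30 without blastomeres under 5000 genes above FPKM 1. Among the other Klf genes, 8 were above FPKM 1 in at least 50% of blastomeres of either stage. These were Klf2, Klf3, Klf8, Klf9, Klf10, Klf11, Klf13 and Klf16, with medians from 3.11 (Klf3) to 30.3 (Klf2) at the 4-cell stage. Only Klf11 among them was past 2-fold, from a median of 20.5 to 4.66 (difference -1.72). With Klf17, 2 of the 14 Klf genes listed at both stages were past 2-fold lower and none higher. Beside them, 6.76% of the 13604 genes were past 2-fold lower, and 12.1% of the 7248 genes above FPKM 1 in at least 50% of blastomeres of either stage.

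Esrrb, an orphan nuclear receptor that partners Nanog in stem cells, had an FPKM from 0 through 3.06 to 16.9 at the 4-cell stage. In 8-cell blastomeres it ran from 0 through 8.21 to 39.0. It exceeded FPKM 1 in 17 of 24 blastomeres (70.8%, 48.9% to 87.4%) and in 22 of 26 (84.6%, 65.1% to 95.6%), and the 4-cell share was 45.8% at FPKM 5. The difference was 1.24, with 22 of 26 values at the 8-cell stage above the 4-cell median and 8 above the 4-cell range. At each stage the coefficient of variation, 1.05 and 0.902, was smaller than the median of genes at the same level, 1.35 and 1.01. Esrra had medians of 0.102 and 0.0291.

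Tfcp2l1, a grainyhead-family factor downstream of LIF signalling in stem cells, went from the least to the fifth most abundant of the factors. At the 4-cell stage 13 of 24 blastomeres were listed at 0, the median was 0 and the highest 7.27. In contrast, 2 of 26 blastomeres at the 8-cell stage were listed at 0, the median was 8.81 and the highest 33.3. It exceeded FPKM 1 in 9 of 24 blastomeres (37.5%, 18.8% to 59.4%) and in 22 of 26 (84.6%, 65.1% to 95.6%), and FPKM 5 in 4.17% and 61.5%. The difference was 2.05 (3.48 with a pseudocount of 0.1 and 3.29 between medians), 14 of the 26 blastomeres at the 8-cell stage lay above the 4-cell range, and 0.323% of the 13604 genes had a larger difference. Its relatives Tfcp2, Ubp1 and Grhl2 were above FPKM 1 in at least 50% of blastomeres at both stages, with differences of -0.62, -0.21 and 0.37. The gene has 15 exons over 9270 exon bases (chr1:118627923-118685168, plus strand), so that FPKM 1 stood for about 124 fragments in a 4-cell and 160 in an 8-cell blastomere, and 3 fragments would have given 0.0242 and 0.0188.

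Prdm14, a PR-domain protein that holds back differentiation and DNA methylation in stem and germ cells, went the other way. Its FPKM ran from 0 through 9.89 to 53.8 at the 4-cell stage, with 7 blastomeres listed at 0 and the lowest of the other 17 at 1.88. Of the 26 blastomeres at the 8-cell stage 23 were listed at 0, another stood at 0.0227, and the remaining pair at 2.88 and 9.67. The share above FPKM 1 was 70.8% (48.9% to 87.4%) at the 4-cell stage and 7.69% (0.946% to 25.1%) at the 8-cell stage, and 12 of 24 values at the 4-cell stage exceeded the 8-cell range. The difference was -2.54, with 0.213% of genes further down, and -4.55 with a pseudocount of 0.1. In a blastomere of median depth 3 fragments would have given an FPKM of 0.0867 among the 4-cell and 0.0672 among the 8-cell libraries. Gapdh was also listed at 0 in 1 blastomere of each stage and Tbp in 2 of the 8-cell stage, so a 0 is given here only as a listed value. The gene lies at chr1:13113428-13127163 on the minus strand and has 8 exons.

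**Figure D2:**
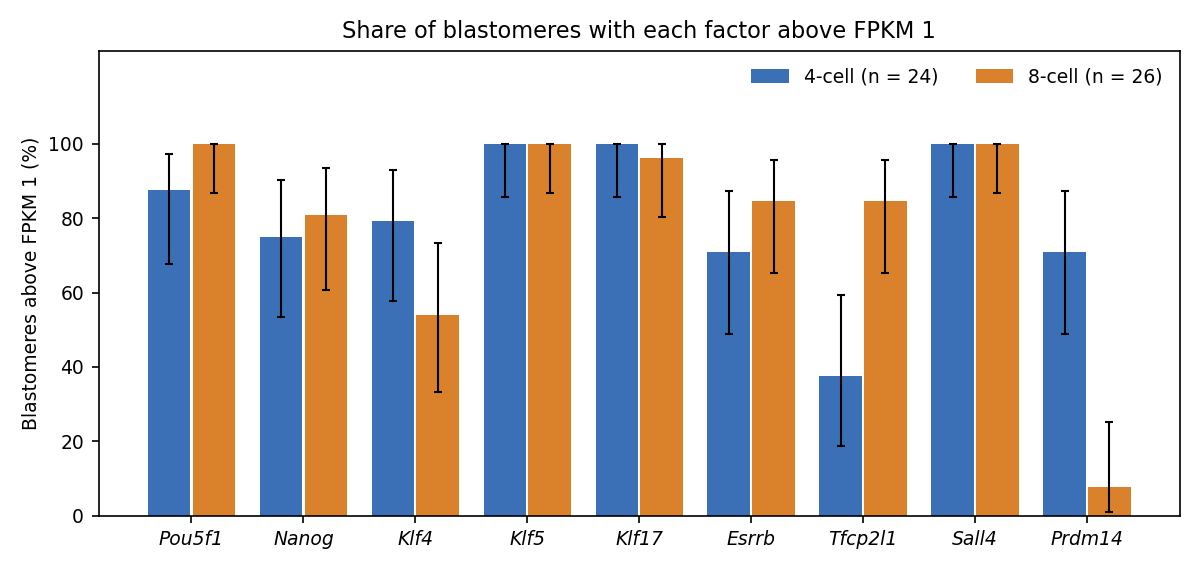
Share of blastomeres with each factor above FPKM 1, in percent, at the 4-cell (n = 24) and 8-cell stage (n = 26). Error bars are exact 95% binomial intervals, which cover counting error only. The bars of the stages lie farthest apart for Prdm14 (70.8% against 7.69%) and Tfcp2l1 (37.5% against 84.6%), with no test of the difference.

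**Figure D3:**
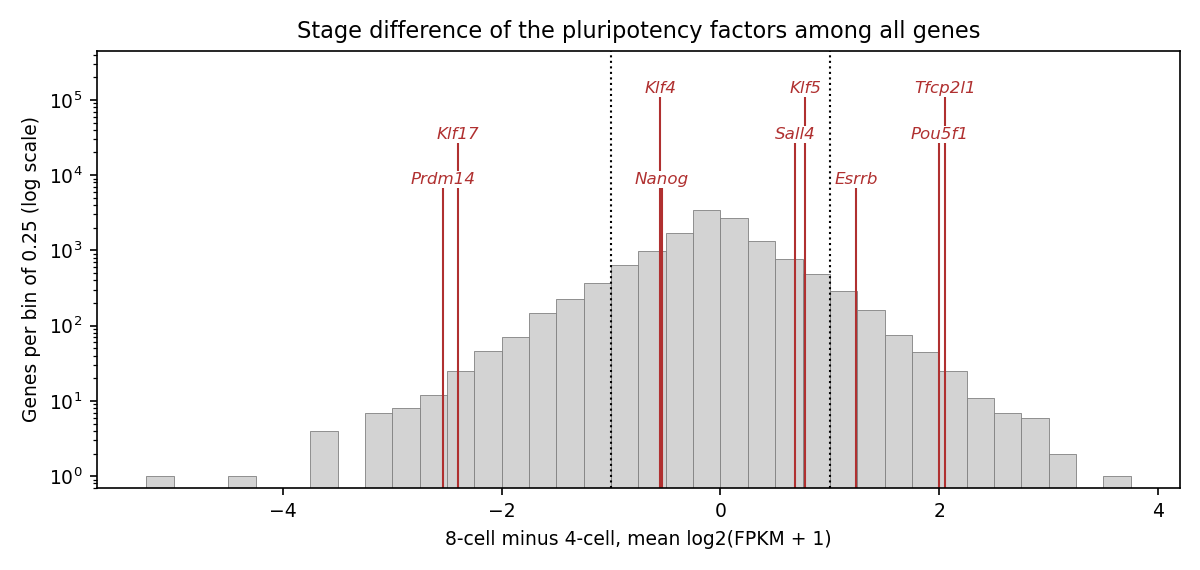
Distribution over 13604 genes of the 8-cell minus 4-cell difference in mean log2(FPKM + 1), with the number of genes per bin on a log axis. Red lines are the 9 factors and dotted lines mark 2-fold. Prdm14 (-2.54) and Klf17 (-2.41) lie in the lower tail, and Pou5f1 (2.0) and Tfcp2l1 (2.05) in the upper.

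Within single blastomeres the order of the factors also differed between the stages. By median FPKM the order at the 4-cell stage was Klf17, Klf5, Pou5f1, Sall4, Nanog, Prdm14, Klf4, Esrrb and Tfcp2l1. Only the first step held in every blastomere, Klf17 above Klf5 in 24 of 24. Nanog was above Prdm14 in 19 of 24, whereas Prdm14 above Klf4 (12 against 10, others tied) and Klf4 above Esrrb (12 against 11) were near even. At the 8-cell stage the order was Pou5f1, Klf5, Klf17, Sall4, Tfcp2l1, Esrrb, Nanog, Klf4 and Prdm14. Pou5f1 and Klf5 were each the higher in 13 of 26 blastomeres, and Tfcp2l1, Esrrb and Nanog could not be ordered either (15 against 10 and 14 against 11). Sall4 above Tfcp2l1 held in 23 of 26. FPKM divides by gene length, so these are levels per length, with the caveat that the steps of Nanog fitted a length of 3858 bases and not the 2242 bases of its curated exons.

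The number of factors above FPKM 1 in a blastomere ran from 3 to 9 at each stage, with a median of 8 in 4-cell and of 7 in 8-cell embryos. All 9 were above it in 4 blastomeres of the 4-cell stage and 2 of the 8-cell stage. The number moved with the number of genes above FPKM 1 in the blastomere (Spearman rho 0.79 over 24 and 0.44 over 26 blastomeres). The 4-cell blastomere with 3 factors was the one with the fewest genes, 3009, and held Klf17 at 628, Klf5 at 152 and Sall4 at 26.4, with Pou5f1, Esrrb, Tfcp2l1 and Prdm14 listed at 0. Genes above FPKM 1 numbered 3009 to 8276 at the 4-cell stage and 3548 to 8078 at the 8-cell stage, over 6.87 to 16.9 and 2.33 to 21.7 M fragments. At each stage 3 blastomeres had fewer than 5000. The part of RNA quality in the listed zeros was not tested.

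Correlation between factors was examined for the 8 that exceeded FPKM 1 in at least 50% of blastomeres of a stage, 28 pairs per stage. Blastomeres of 1 embryo share their source, so the values are descriptions. The mean Spearman rho was 0.0053 at the 4-cell stage, against 0.049 over all pairs of the 6878 genes that passed the same filter, and 0.075 at the 8-cell stage, against 0.018 over 6325 genes. The mean over the factors was thus below that over all genes at the 4-cell stage and above it at the 8-cell stage, while single pairs reached larger values of either sign. The order at the 8-cell stage turned on a single blastomere, the one with 3548 genes above FPKM 1, without which the mean was -0.0030 over the factors and 0.0093 over all genes passing the filter. Without all blastomeres under 5000 genes these were -0.0074 and 0.0066, and at the 4-cell stage 0.0068 and 0.0094, omissions compared after the data were seen.

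Klf5 and Nanog were the most opposed pair at the 4-cell stage, with a rho of -0.72 over 24 blastomeres pooled. The pooled value ran from -0.78 to -0.61 over the 31 settings tried, which included leaving out each blastomere. Nanog correlated with the number of genes above FPKM 1 (rho 0.60) and Klf5 against it (-0.51), and given that number the partial rho was -0.61. The relation went in part with the position of the columns. The 6 blastomeres near 0 for Nanog all stood between columns 15 and 23, and within the first 12 and the last 12 columns the rho was -0.41 and -0.34. The median Klf5 was 38.9 in the first and 97.1 in the last 12, and the median Nanog 51.3 and 3.07. This division of the table was made after the data were seen, and whether its parts hold different embryos was not tested. Among 8-cell blastomeres the same pair had a rho of -0.01 over 26 blastomeres, with 0.14 within the first 13 columns and -0.58 within the last 13, and the difference between the stages was not tested. Klf5 also ran against Prdm14 (-0.52) and Nanog against Klf17 (-0.46) and Klf4 (-0.39) at the 4-cell stage. For these pairs the partial rho was -0.38, -0.28 and -0.27. Nanog and Prdm14 went together (0.48, partial rho 0.30), as did Pou5f1 and Nanog (0.36), although the last had a partial rho of 0.13.

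**Figure D4:**
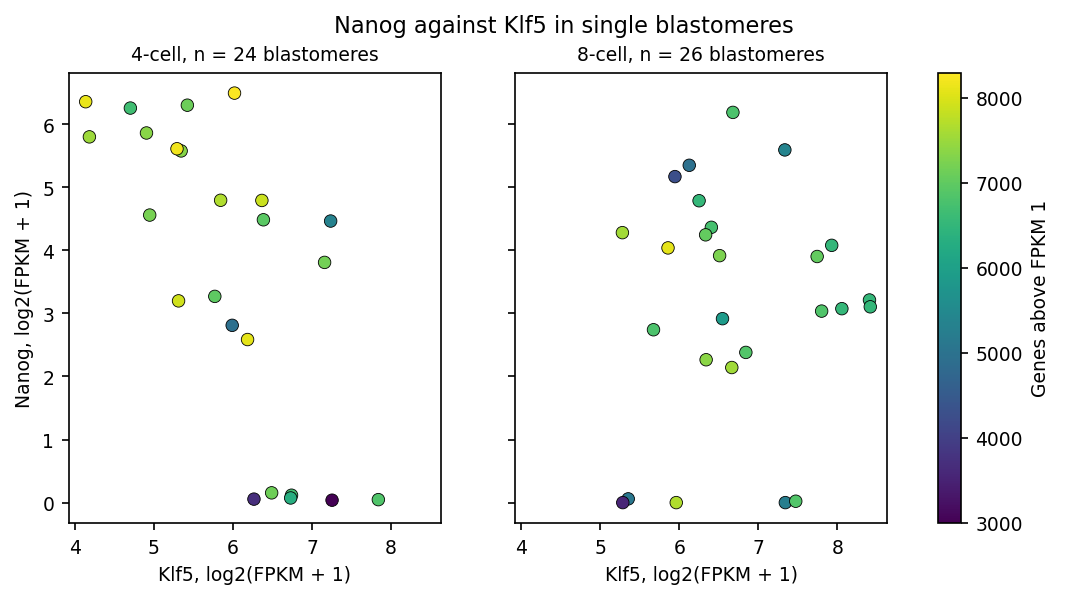
Nanog against Klf5, both as log2(FPKM + 1), in single blastomeres of the 4-cell (left) and 8-cell stage (right), coloured by the number of genes above FPKM 1. At the 4-cell stage the blastomeres near 0 for Nanog all lie above the Klf5 median of FPKM 63.2 (rho -0.72), and at the 8-cell stage the points show no such order (rho -0.01). Within the first and the last 12 columns of the 4-cell stage the rho was -0.41 and -0.34.

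Klf5 and Klf17 had the largest positive rho at both stages among pairs measured at both, with a rho of 0.43 at the 4-cell stage and 0.50 at the 8-cell stage, the highest of the 28 pairs there. The partial rho was 0.27 and 0.51. Among 8-cell blastomeres Esrrb had a rho of 0.43 to Klf5 and 0.42 to Klf17, with the same partial rho of 0.43 and 0.42. At the 4-cell stage it had -0.32 and -0.02, with a partial rho of -0.08 and 0.24. The difference between the stages was not tested. At the 8-cell stage the 6 highest Klf5 values stood in columns 12 to 17. Klf17 was highest in columns 16 and 13, at 252 in each, and did not exceed 107 in columns 1 to 11. The highest Esrrb value, 39.0, stood in column 8. The part of column position in these rho values was not tested. Tfcp2l1 ran against Esrrb (-0.34) and Sall4 (-0.32) at the 8-cell stage and with Pou5f1 (0.31). For these pairs the partial rho was -0.44, -0.20 and 0.16, and the Pearson r of log2(FPKM+1) was -0.12, -0.13 and 0.24. Of the 21 pairs measured at both stages 10 had the same sign, 7 of them positive.

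**Figure D5:**
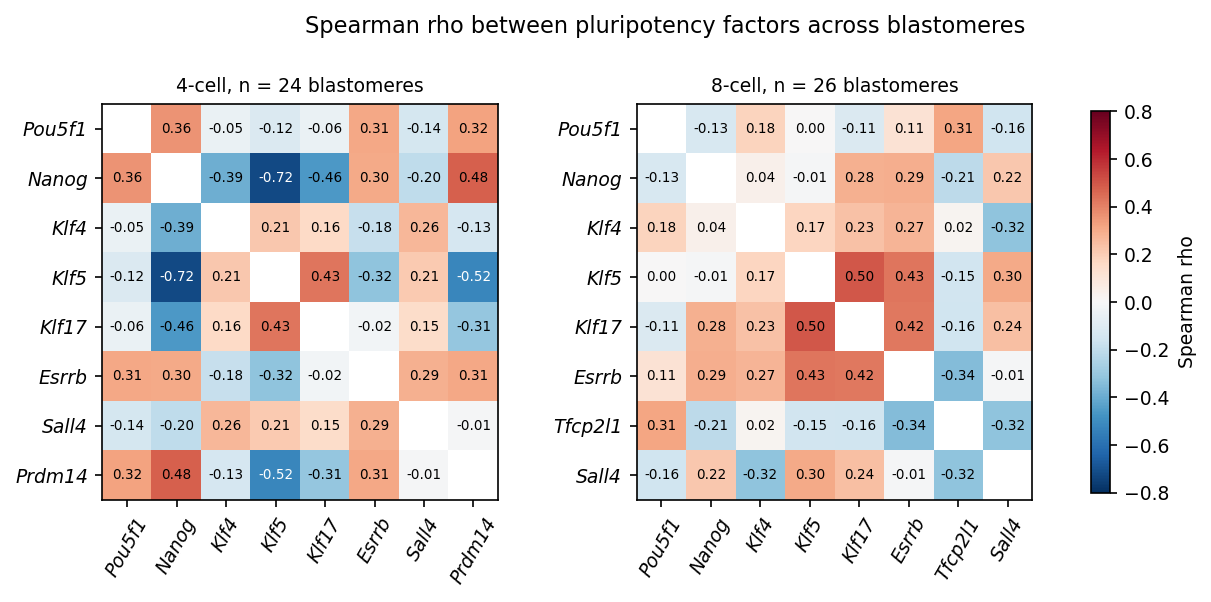
Spearman rho between factors above FPKM 1 in at least 50% of blastomeres of a stage, over 24 blastomeres of the 4-cell stage (left) and 26 of the 8-cell stage (right). Red is positive and blue negative. Nanog and Klf5 (-0.72) stand out at the 4-cell stage, and Klf5, Klf17 and Esrrb form a positive block at the 8-cell stage (0.42 to 0.50). The part of column position in these values was not tested.

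The genes most like each factor across blastomeres were sought among 5955 genes above FPKM 1 in at least 50% of blastomeres of both stages. Only the closest gene of a factor is given here, for the factors where its rho was highest. At the 4-cell stage these were Crygs with Nanog (0.86), Chmp1a with Esrrb (0.86), Scaf11 with Klf5 (0.84), Atf6 with Prdm14 (0.82) and Ranbp3 with Klf17 (0.80). In the 8-cell blastomeres they were Smg5 with Klf5 (0.84), Larp4b with Esrrb (0.76), Ptpn21 with Klf17 (0.76), Ocln, a tight junction protein, with Pou5f1 (0.76) and Rlf with Klf4 (0.74). Genes chosen for their high rho at 1 stage can by that choice alone have a lower one at the other. The 24 genes closest to the factors at the 4-cell stage had a rho there of 0.60 to 0.86, and a median rho of 0.15 at the 8-cell stage, from -0.25 to 0.49, with 16 of 24 above 0. The 24 of the 8-cell stage had a median of 0.22 at the 4-cell stage, with 17 of 24 above 0. The highest values in the other stage belonged to Prmt7, a protein arginine methyltransferase, with Nanog (0.64 and 0.68) and Smarca4, the ATPase of the BAF remodelling complex, with Klf17 (0.71 and 0.63), at the 8-cell and the 4-cell stage. No factor was among the 3 genes closest to another. The search could not return Tfcp2l1 or Prdm14, which did not pass the filter at both stages. With so few factors among 5955 candidates, no conclusion is drawn from this.

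Other genes of the network gave a mixed picture beside the 9 factors. Of 26 further genes 23 were listed at both stages, 4 of them past 2-fold higher at the 8-cell stage and 2 lower, with a median difference of 0.03. The shares over the 13604 genes were 4.56% higher and 6.76% lower. Fgf4, a target of Pou5f1 and Sox2 in stem cells, went from a median of 8.53 to 0, with 20 of 24 blastomeres above FPKM 1 before and 8 of 26 after the division (difference -2.15). Tbx3, a T-box factor, went from 7.54 to 40.0 (1.91), Zfp42 (Rex1) from 33 to 92.2 (1.88) and Utf1 from 10.5 to 31.3 (1.78). Dppa3, Dppa5a, Dppa2, Dppa4 and Sox15 had higher medians than all 9 factors at both stages, of 3658, 1039, 579, 537 and 501 at the 4-cell stage. Sox21, a relative of Sox2, was above FPKM 1 in 12 of 24 and 12 of 26 blastomeres.

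Markers of the lineages to come and of other cells were set beside these values. Of 10 trophectoderm markers listed at both stages, the keratins Krt8 and Krt18 were past 2-fold higher at the 8-cell stage (2.87 and 3.50). Id2 and Hand1 were past 2-fold lower (-1.73 and -1.20), the others lay within 2-fold, and the list median was 0.26. Of the 3 primitive endoderm markers listed at both stages Gata6 was past 2-fold higher (2.42) and Gata4 and Pdgfra within 2-fold (-0.81 and -0.04). Over the 13604 genes the shares were 4.56% higher and 6.76% lower. Of 13 oocyte and early embryo genes listed at both stages, Nlrp5 and Gdf9 were past 2-fold lower (-1.10 and -1.06), beside 6.76% of the 13604 genes. The other 11 lay within 2-fold, and the list median was -0.22. Of 12 cumulus and granulosa cell markers 5 were listed at the 4-cell stage and 4 at the 8-cell stage, and their summed FPKM of 9.03 to 104 and 7.84 to 111 came mostly from Amhr2, which made up over 90% of the sum in 22 of 24 and 24 of 26 blastomeres and at the least 89.3% and 27.8%, while Amh, Cyp19a1, Star and Has2 had medians of 0 where listed. The 2 sperm markers listed, Prm1 and Prm2, summed to at most 8.79 and 23.4, with a median of 0. The part of other cells in the factors' values was not tested.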

How the data were processed

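Single blastomeres were profiled with SMART-seq2 and Nextera XT libraries, sequenced as paired-end reads. The authors aligned reads to mm10 with STAR 2.5.1b, kept unique alignments, counted them with HTSeq on RefSeq genes and deposited FPKM values, 1 table per stage. The lengths and totals behind the FPKM are not given in the sources used here. Of 78 samples in the labels, 36 were 4-cell and 31 were 8-cell blastomeres. None of the 24 and 26 columns had a name that matched 1 sample, 5 of the 26 being named NA, and no match by column order or depth was attempted. The lineage test fixed for the design was therefore not run, and the repeat tables, with 5- and 6-cell embryos, were not used here. Entrez identifiers were matched to RefSeq of GRCm38.p6 (15200 and 15320 found).

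Denominators were recovered from the steps of low values in genes with 1 curated transcript. At least 90.9% of low values (0.5 to 10 fragments) were then whole within 0.1 in every blastomere. This step and the stage difference were tested on simulated data, with no result given here. Amplified fragments are not independent molecules, so intervals cover counting error only. The measures were the share above FPKM 1 with exact Clopper-Pearson intervals, the difference of mean log2(FPKM+1), where past 1 was taken as past 2-fold, Spearman rho and the coefficient of variation beside genes with a mean within 2-fold. Cells are not replicates, so no p-value was computed. Python 3.11.15, NumPy 2.4.6, pandas 2.3.3 and SciPy 1.17.1 were used. The text names the 10 factors, the 3 genes with the highest rho to a factor, family genes above FPKM 1 in at least 50% of blastomeres and up to 4 genes per list with the largest difference. Genes named beyond this rule (Dppa2, Dppa3, Dppa4, Dppa5a, Sox15, Esrra, Gapdh, Cyp19a1) were chosen after their values were seen. Gm14261 is named for its exon overlap with Sall4. The factors, lists and tests were chosen with earlier results of these data known.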

Additional observations from a re-analysis of the deposited data

How the results depend on the processing

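No paired analysis was possible because neither gene table names an embryo or a replicate. That holds for column names only, since a match of columns to embryos by order or depth was not attempted. The stage counts held in direction. Of the factors, 3 were past 2-fold higher under all 7 other settings and all 50 ways of leaving out 1 blastomere, which were added after the data were seen, and 2 to 3 were past 2-fold lower. Nanog (-1.32) passed 2-fold with medians of log2(FPKM+1), and was at -0.97 without blastomeres with fewer than 5000 genes, and Klf4 (-1.16) with a pseudocount of 0.1. The number of factors above the line in at least 50% of blastomeres was 7 to 8 at thresholds of 0.1 and 5 and after every omission. Over all factor values, 80.1% at the 4-cell stage and 78.6% at the 8-cell stage exceeded FPKM 1, and 69.0% and 71.4% exceeded FPKM 5, so that the order of the stages turned with the threshold. The mean rho over pairs changed with the setting. At the 4-cell stage it was 0.036 as Pearson r of log2(FPKM+1) and 0.034 as partial rho, and -0.021 to 0.015 leaving out 1 blastomere. At the 8-cell stage it was 0.15 as Pearson r, 0.12 after rescaling by the median ratio, 0.11 without the columns named NA, -0.0074 without blastomeres with fewer than 5000 genes, and -0.0030 to 0.086 leaving out 1 blastomere. The number of factors more variable than genes at their level was 5 at each stage by coefficient of variation, and 3 and 5 by the standard deviation of log2(FPKM+1). The cause of these changes was not tested. The number of blastomeres, 24 and 26, limits the shares.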
